A study of Mus musculus with 34 samples.

Results

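Acetylation of lysine 27 on histone H3 (H3K27ac) was set against RNA level at every gene locus of mouse splenic B cells that had been activated with LPS, a bacterial cell wall component. The members were all 23812 rows of the RNA table, and each row was classed by the H3K27ac peaks of activated cells in its locus plus 5 kb on each side. A peak within 1 kb of either end of the locus was counted as an end peak, and any other peak in that window as a body or flank peak. Of the 23812 loci, 4724 (19.8%) had both kinds of peak, 5891 (24.7%) had end peaks only, 2002 (8.41%) had body or flank peaks only and 11195 (47.0%) had no peak. RNA values did not enter this rule.

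The cells were the CD43-negative fraction of spleens from C56BL/6J mice (the strain as the labels spell it) aged 6 to 8 weeks, obtained by magnetic labelling. Activated cells (aB) were cultured for 3 days with LPS at 10 µg per ml, and gave 2 RNA-seq samples and 1 H3K27ac peak list. There were 2 H3K27ac ChIP-seq samples of activated cells; the labels name the list under replicate 1, and whether both were pooled for it is not stated, so the classes have no replicate check. Resting cells (rB), the control, gave 2 RNA-seq samples. Their titles and source names call them resting, while their growth and treatment fields repeat the LPS culture, so how they were handled is not settled by the labels. The series holds 34 samples, and the remaining assays were used only where named. Whether the 2 replicates of a group are separate animals or cultures is not stated. A p-value here therefore reflects only how far these samples vary, which may be technical variation.

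H3K27ac is laid down by the acetyltransferases CBP and p300 and is found on nucleosomes that flank active promoters and active enhancers. At a promoter it accompanies H3K4me3, while away from promoters it marks active rather than merely primed enhancers. In B cells, genes of the B cell programme such as Pax5 and Ebf1 are known for stretches of acetylated enhancers inside and around them, and LPS drives these cells to divide and to begin antibody secretion under Irf4, Prdm1 and Xbp1.

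Defining B cell genes fitted the labelled cell type. Cd79a, Cd79b, Ms4a1 and Pax5 had both end and body or flank peaks in activated cells, and their RNA lay between 34.9 FPKM (Pax5, activated replicate 2) and 1243 FPKM (Cd79b, resting replicate 2) in the 4 samples. The unit, fragments per kilobase of transcript, scaled to sequencing depth (FPKM), was inferred from the values and is a level per length. The resting samples also held RNA of other cells: macrophage C1qa had listed values of 0 in the 2 activated samples and 90.2 and 102.6 FPKM in the resting samples, and erythroid Alas2 had 0.179 and 0.112 FPKM in activated and 11.9 and 95.5 FPKM in resting cells. In bulk samples fewer cells of a type and less RNA per cell cannot be told apart. The FPKM of the 4 samples summed to between 244602 and 287884, and comparing the steps of low values put the other samples at 1.35 to 1.598 times the depth of activated replicate 1; absolute depth is unknown.

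5 promoters show the kinds of loci the results turn on. Each is the 300 bases from 250 before to 50 after the most upstream RefSeq start (build GRCm38.p6), written 5′ to 3′ in lower case with every CG dinucleotide in capitals, since CG content differed between the classes. The peaks are on build mm9 and were not placed on these sequences.
Prdm1, chr10:44458699-44458998, minus strand, end and body peaks: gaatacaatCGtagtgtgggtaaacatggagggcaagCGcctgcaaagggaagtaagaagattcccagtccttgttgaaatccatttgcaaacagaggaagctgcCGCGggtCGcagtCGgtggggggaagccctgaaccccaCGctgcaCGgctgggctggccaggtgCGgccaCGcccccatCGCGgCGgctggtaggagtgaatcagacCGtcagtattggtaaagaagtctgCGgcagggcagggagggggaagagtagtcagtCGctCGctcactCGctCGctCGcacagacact
Zbtb32, chr7:30598860-30599159, minus strand, end peak only: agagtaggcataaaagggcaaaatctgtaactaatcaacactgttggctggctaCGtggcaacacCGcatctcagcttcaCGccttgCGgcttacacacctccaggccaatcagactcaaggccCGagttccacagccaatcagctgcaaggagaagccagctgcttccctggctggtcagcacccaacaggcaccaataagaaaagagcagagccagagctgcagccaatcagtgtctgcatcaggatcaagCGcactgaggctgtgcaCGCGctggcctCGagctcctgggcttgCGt
Hspa5, chr2:34771840-34772139, plus strand, no peak and abundant RNA: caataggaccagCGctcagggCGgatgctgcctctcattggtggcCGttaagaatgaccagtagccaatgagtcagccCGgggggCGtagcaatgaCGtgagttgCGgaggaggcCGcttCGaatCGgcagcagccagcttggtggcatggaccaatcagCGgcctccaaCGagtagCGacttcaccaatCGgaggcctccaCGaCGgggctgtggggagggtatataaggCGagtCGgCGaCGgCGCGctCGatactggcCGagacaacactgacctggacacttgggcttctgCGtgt
Atf4, chr15:80254934-80255233, plus strand, no peak and abundant RNA: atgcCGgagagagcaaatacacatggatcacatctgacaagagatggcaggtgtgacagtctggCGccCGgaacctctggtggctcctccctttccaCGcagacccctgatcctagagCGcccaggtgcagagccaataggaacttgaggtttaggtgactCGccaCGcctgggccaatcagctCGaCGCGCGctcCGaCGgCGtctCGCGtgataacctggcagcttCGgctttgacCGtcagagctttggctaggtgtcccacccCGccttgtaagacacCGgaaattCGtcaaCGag
Fcna, chr2:25627925-25628224, minus strand, 1 flank peak and RNA only in resting cells: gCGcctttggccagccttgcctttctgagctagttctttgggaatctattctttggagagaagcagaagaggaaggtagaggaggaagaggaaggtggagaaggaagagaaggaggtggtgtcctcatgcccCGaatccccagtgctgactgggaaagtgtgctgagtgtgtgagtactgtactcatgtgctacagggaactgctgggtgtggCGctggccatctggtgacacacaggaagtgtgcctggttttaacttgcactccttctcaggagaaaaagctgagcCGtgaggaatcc
The Prdm1 sequence holds 20 CG and that of Zbtb32 10, against 25 in Hspa5, 22 in Atf4 and 4 in Fcna.

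RNA was abundant where an end of the locus was acetylated and scarce elsewhere, in activated and resting cells alike. Loci with both kinds of peak had a median of 11.1 and 11.4 FPKM in the activated samples and 10.7 and 11.1 FPKM in the resting samples. Loci with end peaks only had medians of 8.46 and 8.91 FPKM in activated and 7.72 and 8.27 FPKM in resting cells. With body or flank peaks only the medians were 0.0901 and 0.0726 FPKM in activated and 0.150 and 0.156 FPKM in resting cells. Loci with no peak had a median of 0 in all 4 samples. A mean activated level of at least 1 FPKM was reached by 87.7%, 83.9% and 25.1% of the classes with peaks, in the order just given, and by 5.84% of loci with no peak, against 43.0% of all loci. The 2 classes with end peaks held 43.3% and 47.0% of the summed activated FPKM. The medians of replicates differed by far less than the medians of classes with and without end peaks, while the class rests on 1 peak list.

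**Figure D1:**
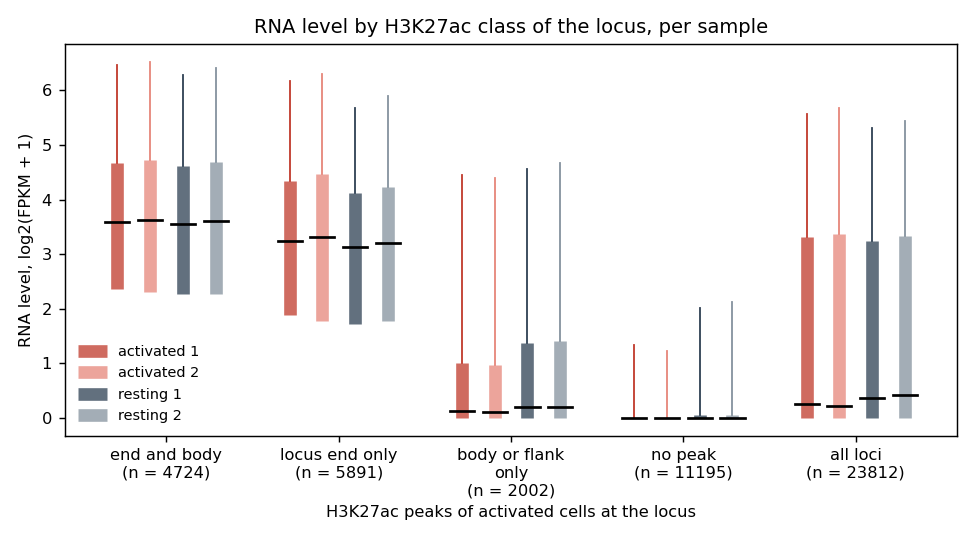
RNA level per sample, as log2(FPKM + 1), of loci in each H3K27ac class and of all loci, with activated samples left of resting samples. Black lines are medians over loci, thick bars run from the first to the third quartile and thin lines reach the 95th percentile; the classes with end peaks have medians of 7.72 to 11.4 FPKM, and the class with no peak stands at 0.

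Read the other way, the share of loci with an end peak was 3.31% among 8587 loci at 0 FPKM in both activated samples and 25.005% among 4983 loci above 0 and under 1 FPKM. It was 83.4% from 1 to under 10 FPKM, 93.1% from 10 to under 50 FPKM, 93.6% from 50 to under 200 FPKM and 85.0% among the 140 loci at 200 FPKM or more. The share thus stepped up around 1 FPKM and did not climb further at the highest levels. Above 200 FPKM 13 loci (9.29%) had no peak, against 33 (3.24%) from 50 to under 200 FPKM.

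**Figure D2:**
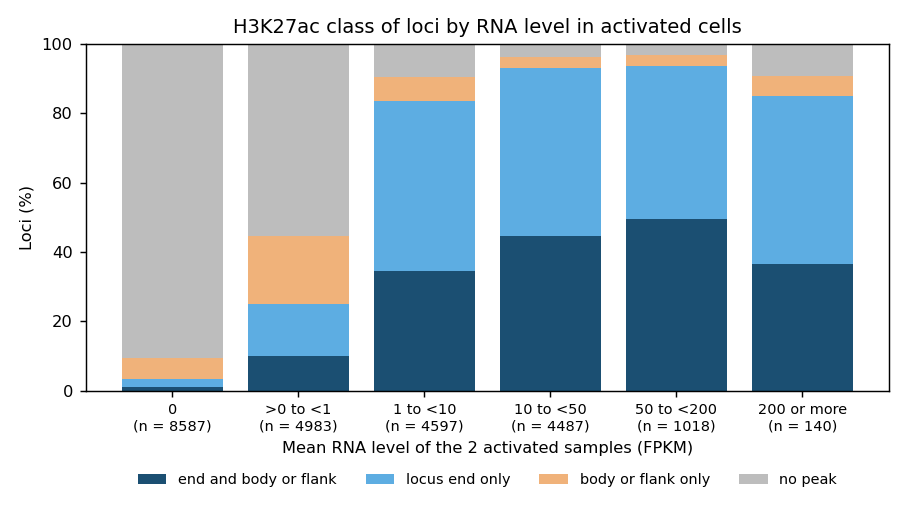
Share of loci in each H3K27ac class (vertical axis, percent) by mean activated RNA level (horizontal axis, FPKM), with the number of loci under each bar. End peaks, in the 2 blue parts, cover 3.31% of loci at 0 FPKM and 83.4% to 93.6% of loci from 1 to under 200 FPKM.

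Genes with the highest RNA in each class included secretory and translation genes. Mzb1, which helps assemble IgM, had 1 end peak and 1 body or flank peak, with 1536 and 1537 FPKM in activated and 141.4 and 179.4 FPKM in resting cells (log2 difference 3.26 ± 0.25 SE, adjusted p = 0.000144). Adjusted p-values here and below are from limma on log2(FPKM + 1), with Benjamini-Hochberg adjustment over 10863 genes tested. The chaperone gene Hsp90ab1, in the same class, had 1080 and 1325 FPKM in activated and 384.3 and 312.7 FPKM in resting cells (adjusted p = 0.00174). Among loci with end peaks only, Cd52, a small surface glycoprotein gene of lymphocytes, had 1 peak of 9138 bases, with 1981 and 1900 FPKM in activated and 1475 and 2165 FPKM in resting cells, so that the groups overlapped. The highest loci with body or flank peaks only were the elongation factor gene Eef2 and Igj, which encodes the J chain that joins IgM subunits. Igj (chr5:88948834-88956922, mm9) held a single 500-base peak at chr5:88955111-88955610, just over 1 kb from an end of the locus, and had 1173 and 1255 FPKM in activated and 35.8 and 76.6 FPKM in resting cells (adjusted p = 0.000185). Eef2 had 2 such peaks, with 1381 and 1263 FPKM in activated and 571.8 and 630.9 FPKM in resting cells, and its call was lost without resting replicate 1 (adjusted p = 0.0799) or 2 (adjusted p = 0.0522).

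Where RefSeq gave the strand (17483 loci), the 5′ end was the acetylated end. Of 8444 such loci with an end peak, 7130 (84.4%) had it at the 5′ end only, 993 (11.8%) at both ends and 321 (3.80%) at the 3′ end only. Loci with a 3′ peak only had medians of 0.129 and 0.0994 FPKM in the activated samples, against 9.98 and 10.6 FPKM for a 5′ peak only and 13.2 and 13.7 FPKM for both ends. Among loci with an end peak, 1530 had a mean activated level under 1 FPKM, and 624 of these (40.8%) shared the peak with an end of another locus that reached 1 FPKM.

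Within the class with both kinds of peak, RNA level went with the width of end peaks more than with the number of peaks. Spearman's rho across all 23812 loci was 0.729 for the number of peaks and 0.760 for their summed width against the mean activated level, and 0.710 and 0.739 against the mean resting level. Over the 12617 loci with at least 1 peak, rho was 0.188 for number and 0.382 for summed width in activated cells, and 0.213 and 0.390 in resting cells. Within the class with both kinds of peak, rho with the activated level was 0.399 for the summed width of end peaks, 0.101 for that of body or flank peaks and 0.106 for the number of peaks. With end peaks only it was 0.345 for width and 0.0523 for number. With body or flank peaks only it was 0.317 for width and 0.264 for number. Loci with end peaks only held a median of 1 peak and at most 3. Number hardly varied in that class, so its rho cannot be set against that of width. These correlations are across loci, which share libraries, neighbours and peaks and are not replicates. Of the peaks in a locus window, 22.7% lay in the windows of 2 or more loci.

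Bins of summed width mix width with class, as 51.7% of the loci in the narrowest bin and 92.9% of those in the widest had an end peak. The tenth of loci with the narrowest summed width (500 to 675 bases) had a median of 0.223 and 0.196 FPKM in the activated and 0.297 and 0.353 FPKM in the resting samples. The tenth with the widest (6076 to 75056 bases) had 18.8 and 17.7 FPKM in activated and 20.3 and 20.2 FPKM in resting cells. At a given width of end peaks, the number of body peaks went with smaller differences: among loci with 1082 to 1569 bases of end peak, median activated levels were 8.68 FPKM with no body peak, 8.88 with 1, 10.3 with 2 or 3 and 7.57 with 4 or more. Among loci with 2314 to 25622 bases they were 17.0, 18.8, 19.2 and 20.9 FPKM, in the same order. Peaks at a locus end were wider, with a median of 1439 bases, than those that lay in the body or flank of every locus they touched, with 687 bases. The list holds no peak under 500 bases, and 27.6% of peaks were exactly 500 bases.

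Longer loci had room for more peaks, yet the order of the classes was the same in 4 bins of locus length. For loci under 5 kb, median mean activated levels were 7.94, 7.25 and 0.0257 FPKM in the classes both, end only and body or flank only, and 0 with no peak. For loci of 60 kb or more they were 8.72, 5.40, 0.0771 and 0 FPKM. Within the class with body or flank peaks only, the rho of level with the number of peaks was -0.0158 under 5 kb and 0.479 at 60 kb or more.

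The loci with the most peaks included regulators of B cells. Of those named in the next paragraph, Foxp1 and Ebf1 passed the test as lower in activated cells and Hivep3 as higher. Median activated level was 5.48 and 5.56 FPKM with 1 peak, 12.7 and 13.2 FPKM with 5 to 9 peaks and 18.4 and 16.7 FPKM with 10 to 19. In the resting samples, with the same bins, it was 5.24 and 5.50, 14.3 and 13.8, and 24.8 and 23.8 FPKM. Median locus length was 16534 bases with 1 peak and 152246 bases with 10 to 19.

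Foxp1, a forkhead factor that maintains mature B cells, held the most peaks, 45 with a summed width of 75056 bases, none of them at an end of its locus (chr6:98875336-99385339, mm9). Its RNA was 33.7 and 38.6 FPKM in activated and 61.2 and 60.3 FPKM in resting cells, a fall (log2 difference -0.74 ± 0.17 SE, adjusted p = 0.0119) that lost its call without resting replicate 1 (adjusted p = 0.0851) or 2 (0.0732). Ebf1, the early B cell factor, had 31 peaks, with 22.3 and 14.4 FPKM in activated and 35.9 and 26.9 FPKM in resting cells. It passed the test (adjusted p = 0.0369) but not without activated replicate 2 (0.138), without resting replicate 1 (0.192) or with no filter on low values (0.0894). Hivep3, a zinc finger gene, had 24 peaks and rose, with 14.3 and 12.99 FPKM in activated and 3.26 and 2.45 FPKM in resting cells (adjusted p = 0.000248). Ubac2 (23 peaks) and the protein kinase C gene Prkcb (21 peaks) did not pass the test. Prkcb had 75.5 and 71.8 FPKM in activated and 100.6 and 91.7 FPKM in resting cells. The Ikaros family genes Ikzf1 (19 peaks) and Ikzf3 (18 peaks) were among the widest, and had log2 differences of 0.06 and -0.26 that did not pass.

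From 1 peak upward, the share of tested genes called lower in activated cells rose with the number of peaks. Locus length rose with the number of peaks, and its part in the calls was not tested. Of tested loci of 60 kb or more, 21.9% were higher and 31.8% lower, against 29.6% and 23.3% from 20 to 60 kb. Over all 10863 genes tested, 54.4% were called, 28.2% higher and 26.2% lower in activated cells. With 1 peak 29.7% of tested genes were higher and 20.9% lower. With 5 to 9 peaks 23.4% were higher and 39.3% lower, and with 10 to 19 peaks 19.3% and 39.4%. Tested genes had at least 1 FPKM in at least 2 samples; among those that passed this filter through both groups, 115 were higher and 190 lower of 497 with 5 to 9 peaks, against 1330 and 883 of 4678 with 1 peak. With 4 or more peaks 23.4% of 1071 genes were higher and 36.8% lower; without resting replicate 1 these were 15.3% and 21.7%, and without resting replicate 2 16.5% and 22.6%, against 17.0% and 9.34%, and 21.5% and 8.55%, with 1 peak.

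**Figure D3:**
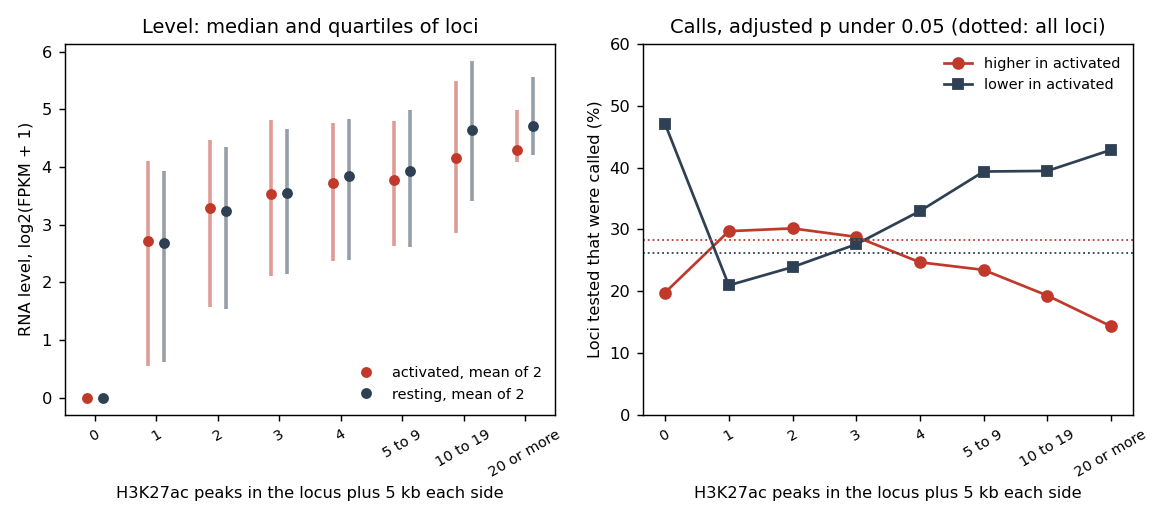
RNA level and calls by number of H3K27ac peaks in the locus plus 5 kb each side. The left panel gives median and quartiles over loci of the mean level, log2(FPKM + 1), of activated (left of each pair) and resting samples. The right panel gives the percent of tested loci called higher or lower in activated cells, with dotted lines at 28.2% and 26.2% for all loci. Resting medians exceed activated ones from 4 peaks on. At 3 peaks the samples overlap, with medians of 10.6 and 10.8 FPKM in activated and 10.4 and 10.7 FPKM in resting cells. The last bin holds 7 loci.

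Calls are given per class as counts of the loci that passed the filter, which favours a difference at loci with RNA in 1 state. Of 4232 tested loci with both kinds of peak 28.7% were higher and 26.7% lower, and of 5055 with end peaks only 30.4% were higher and 19.9% lower. Of 624 with body or flank peaks only 20.03% were higher and 41.2% lower, and of 952 with no peak 19.7% were higher and 47.1% lower. The last 2 counts are not support for a difference, as 124 of the 624 and 298 of the 952 passed the filter only through the resting samples and had to differ; 121 and 292 of these were among the lower calls. Among loci that passed through both groups, 88 were higher and 136 lower of 459 with body or flank peaks only, and 136 were higher and 156 lower of 597 with no peak, against 2710 and 2264 of 9880 over all loci. With 1 resting sample left out, loci with RNA only in resting cells were no longer tested, and fewer genes were called over all loci too. Lower calls of a class in such fits are therefore not set against those of the full fit.

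Genes with RNA in 1 state only are described here with no test. There were 61 loci with a mean of at least 5 FPKM in activated and under 0.5 FPKM in resting cells, and 52 of them (85.2%) had an end peak, while 5 had no peak. There were 121 with the opposite pattern, and 24 of these (19.8%) had an end peak and 80 (66.1%) had no peak. Without resting replicate 2 the second group held 93 loci, 61 of them with no peak. Macrophage and erythroid transcripts, given below, were part of it, and their part in the count was not tested.

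The largest rises in each class included regulators and enzymes. Prdm1, which encodes the plasma cell repressor Blimp-1, had 6 peaks over 11007 bases, among them one of 4085 bases at chr10:44175409-44179493 (mm9) over an end of the locus. Its RNA was 61.3 and 75.8 FPKM in activated and 1.23 and 1.26 FPKM in resting cells (log2 difference 4.94 ± 0.16 SE, adjusted p = 1.58e-05). Cdkn2a, a cell cycle inhibitor gene, had 3 peaks and 48.8 and 44.4 FPKM in activated against 0.150 and 0.152 FPKM in resting cells. Zbtb32, a repressor gene of activated lymphocytes, lay wholly under 1 peak of 8410 bases at chr7:31372924-31381333 (mm9) and had 148.5 and 131.0 FPKM in activated against 1.21 and 1.46 FPKM in resting cells (adjusted p = 8.03e-06). Asns, which makes asparagine, rose as much from a locus whose only peak was 625 bases wide, with 77.8 and 85.8 FPKM in activated and 0.325 and 0.699 FPKM in resting cells. Tmed6, of a family of vesicle cargo receptors, rose with only a flank peak, with 43.8 and 88.4 FPKM in activated and 0.329 and 0.5001 FPKM in resting cells. Asns and Zbtb32 thus had similar log2 differences, 5.78 and 5.91, over peaks of 625 and 8410 bases.

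The largest falls included loci with an end peak in activated cells. No peak list of resting cells was used. Icosl, the ligand of the costimulator ICOS, had 1 end peak of 1197 bases, with 2.88 and 1.53 FPKM in activated against 147.9 and 136.5 FPKM in resting cells (adjusted p = 3.17e-05). Faim3, the receptor for IgM, had 2 peaks and 19.8 and 9.93 FPKM in activated against 483.0 and 435.9 FPKM in resting cells. Tyrobp, which couples activating receptors of myeloid and NK cells to kinases, had 2 peaks over 5888 bases with 1.00 and 0.243 FPKM in activated against 60.2 and 111.8 FPKM in resting cells. No H3K4me3 peak lay at an end of its locus. In all 3 genes the groups did not overlap, as in 80.6% of tested genes.

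Loci with abundant RNA and no peak were few. Of 1158 loci at 50 FPKM or more in activated cells, 46 (3.97%) had none in the list used here, and only 1 of the 46 had an H3K4me3 peak at an end (2.17%) and 11 a FAIRE peak (23.9%), FAIRE being an assay of open chromatin. Of the 1072 with an H3K27ac end peak 99.1% had H3K4me3 and 99.2% FAIRE at an end. Most of the 46 thus lacked a peak at an end in the H3K4me3 and FAIRE lists as well; whether the marks themselves are absent there cannot be told from lists without signal. Of the 46, 2 lay on unplaced chromosomes, for which the list gives no peak.

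Genes of protein secretion and stress were among them. Hspa5, the endoplasmic reticulum chaperone BiP, had 761.5 and 857.5 FPKM in activated and 180.1 and 189.7 FPKM in resting cells (log2 difference 2.12 ± 0.23 SE, adjusted p = 0.000513), and the nearest H3K27ac peak lay 13403 bases from its locus (chr2:34627610-34632049, mm9). Atf4, the transcription factor of the integrated stress response, had 313.8 and 378.2 FPKM in activated and 147.5 and 130.0 FPKM in resting cells (adjusted p = 0.00333). Sec61a1, of the channel that takes proteins into the endoplasmic reticulum, had 149.8 and 243.6 FPKM in activated and 34.9 and 43.1 FPKM in resting cells (adjusted p = 0.000845). Dnajb9, a cochaperone gene, had 47.5 and 58.9 FPKM in activated and 12.4 and 12.9 FPKM in resting cells, and a FAIRE peak at an end. All 4 rose with no overlap between groups, against 28.2% of tested genes that rose and 80.6% that did not overlap. Rplp2-ps1, a pseudogene by its symbol, the ribosomal RNA precursor Rn45s and the ribosomal protein gene Rpl41 were also among the highest loci with no peak; Rplp2-ps1 and Rn45s share sequence with other copies, so their levels are uncertain. The mitotic genes Aurka and Cdca3 rose with no peak as well, Aurka with 28.4 and 42.6 FPKM in activated and 2.76 and 2.66 FPKM in resting cells (adjusted p = 8.55e-05). Sytl3, of a family of vesicle tethering proteins, had 16.5 and 17.1 FPKM in activated and 0.171 and 0.175 FPKM in resting cells, with the nearest peak 5100 bases away, just outside the window.

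The opposite case, many peaks and almost no RNA, was led by 5 loci. Pebp4 had 12 peaks over 21243 bases, with listed values of 0 in the 2 activated samples and 0 and 0.132 FPKM in resting cells. The kidney salt carrier gene Slc12a3 had 8 peaks, with 0.0252 and 0.0158 FPKM in activated and 0.219 and 0.113 FPKM in resting cells. Tex14, a germ cell gene, had 8 peaks, Agbl4 7 and Zfp423 7, all under 0.1 FPKM in the 4 samples. Of the 5, 4 had an end peak, and Slc12a3, Tex14 and Zfp423 had H3K4me3 at an end. In all, 556 loci had an end peak with both activated samples under 0.1 FPKM, and 242 of these (43.5%) shared it with an end of a locus that reached 1 FPKM.

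**Figure D4:**
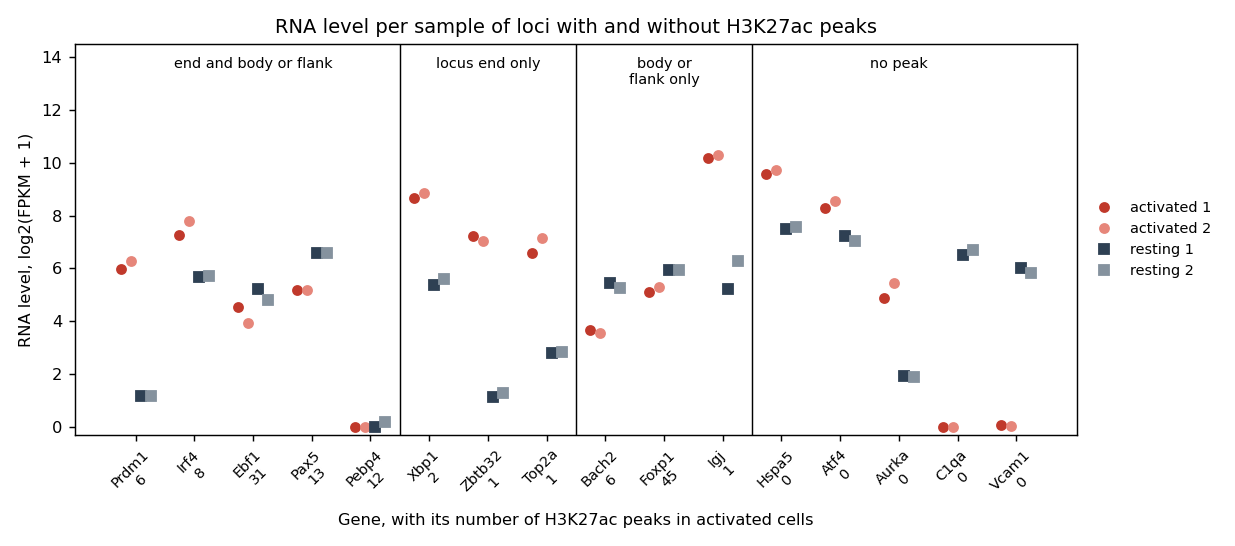
RNA level per sample, log2(FPKM + 1), of single genes grouped by H3K27ac class, with the number of peaks under each name; circles are activated samples and squares, to their right, resting samples. Hspa5 and Atf4 have abundant RNA with no peak, Pebp4 has 12 peaks and almost no RNA, and C1qa and Vcam1 lie at or near 0 in the activated samples and near 6 to 7 on this scale in the resting samples.

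At locus ends, the readouts that the classes did not use followed the end peaks. H3K4me3 lay at a locus end in 96.3%, 97.4% and 28.1% of loci of the classes both, end only and body or flank only, and in 11.3% of loci with no peak. Anywhere in the window it lay in 98.8%, 97.8%, 73.5% and 15.5%. FAIRE peaks lay at an end in 95.5%, 94.8%, 26.4% and 9.81%, and anywhere in the window in 99.7%, 97.5%, 87.6% and 22.8%. Peaks of STARR-seq, in which DNA fragments drive their own transcription from a plasmid, lay at an end in 54.6%, 56.4%, 5.29% and 2.33%, and anywhere in the window in 77.9%, 64.2%, 47.4% and 9.32%. FAIRE fragments were the inserts of that plasmid pool, and the FAIRE and STARR peaks are thus not independent. The 48 super-enhancers touched 40, 21, 3 and 0 loci of these classes, and are labelled as H3K27ac super-enhancers.

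Promoter sequence differed between the classes as well. A RefSeq promoter was matched to 17483 rows by symbol or older symbol, 79.8%, 79.3%, 72.1% and 67.8% of the 4 classes in the same order. The ratio of CG dinucleotides observed to those expected from the base content had a median of 0.790 with both kinds of peak, 0.787 with end peaks only, 0.431 with body or flank peaks only and 0.261 with no peak, against 0.593 over all matched rows and 0.389 over 27025 promoters in the table. A ratio of at least 0.6 was found in 75.8%, 77.2%, 38.2% and 21.5%, against 49.5% of all matched rows and 36.5% of all promoters in the table. The few loci with no peak that had a mean of at least 10 FPKM were unlike the rest of their class, with a median ratio of 0.835 and a ratio of at least 0.6 in 85.6% of 146. Hspa5 (0.901) and Atf4 (0.844), printed above, were among them. Classes with end peaks had similar values at that level. The median was 0.816 with both kinds of peak and 0.833 with end peaks only, with 79.8% and 84.4% at 0.6 or more. With body or flank peaks only it was 0.677, with 58.2%. The differences between whole classes are therefore not separate from RNA level. The 73 matched loci with RNA in resting cells only had a low median of 0.223, and Fcna had 0.205. That median was near the 0.237 of 6520 loci with no peak and a mean under 0.1 FPKM in activated cells.

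Within each wide bin of RNA level end peaks were more frequent at promoters rich in CG, with the smallest gap at 10 FPKM or more. The bins do not hold level fixed. Over all loci, an end peak was present at 3.31% of those at 0 FPKM in both activated samples. It was present at 25.005% of those above 0 and under 1 FPKM. The part of level within a bin was not tested. Under 1 FPKM in activated cells an end peak was present at 25.5% of 2299 loci with a ratio of at least 0.6 and at 7.30% of 7002 with a lower ratio. From 1 to under 10 FPKM it was present at 90.0% of 2651 and 71.3% of 992, and at 10 FPKM or more at 94.4% of 3699 and 90.5% of 840. Of 4 motifs searched on both strands over the 300 bases, TATAAA was found in 6.44%, 6.85%, 10.5% and 20.3% of the classes both, end only, body or flank only and no peak, against 14.2% of all promoters. GGAAGTG, a core bound by ETS factors, was found in 15.7%, 16.2%, 9.003% and 8.62%, against 11.1%. CACGTG, the E-box, was found in 11.3%, 10.3%, 6.44% and 5.82%, against 7.24%, and CCAAT in 38.5%, 39.6%, 36.4% and 39.6%, against 38.0%. Among loci with a mean activated level of at least 10 FPKM, TATAAA was found in 6.19%, 6.74%, 11.3% and 4.79% of the classes, in the same order. A match is a description and not a bound site.

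Gene lists of the B cell response differed in how many peaks their members had and in which way their RNA moved. All 21 matched genes of mature B cell identity had a peak, 17 of them of both kinds, with a median of 3 peaks and 11154 bases. Of these 21, 19 fell and none rose, with a median log2 difference of -1.49 (over all tested genes 26.2% were lower and the median was 0.03). Pax5, which maintains B cell identity, had 13 peaks and 35.4 and 34.9 FPKM in activated against 95.9 and 93.8 FPKM in resting cells (adjusted p = 0.000866). Ciita, the switch of MHC class II genes, had 7 peaks, none at a locus end, with 26.5 and 20.4 FPKM in activated and 85.0 and 76.7 FPKM in resting cells. Bach2, a repressor that opposes Prdm1, had 6 body or flank peaks, with 11.7 and 10.7 FPKM in activated and 43.2 and 37.2 FPKM in resting cells. Ciita, Bach2 and, above, Foxp1 had no H3K4me3 peak at a locus end, but an H3K4me3 peak overlapped each locus. Whether their body peaks lie at a start in use was not tested. Pax5, Ciita and Bach2 thus had wide acetylation in activated cells while their RNA was below that of resting cells.

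The 16 matched plasma cell genes all had a peak too, 14 of them at an end, against 10615 of all 23812 loci with an end peak, with a median of 2 peaks and 8363 bases. Of 15 tested, 14 rose, against 28.2% of all tested genes, with a median log2 difference of 3.06. Irf4, needed for plasma cells, had 8 peaks and 154.0 and 224.2 FPKM in activated against 50.2 and 52.0 FPKM in resting cells (adjusted p = 0.00108). Xbp1, a driver of secretion, had 2 end peaks over 8316 bases with 401.7 and 466.3 FPKM in activated and 40.5 and 47.2 FPKM in resting cells. Fam46c, a poly(A) polymerase gene, had 6 peaks and 140.2 and 151.0 FPKM in activated against 2.42 and 7.68 FPKM in resting cells. Sdc1, the plasma cell marker CD138, had an end peak and a body or flank peak, with 2.16 and 5.17 FPKM in activated and 3.46 and 3.76 FPKM in resting cells, and did not pass.

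Lists of growth had few peaks per locus, mostly at an end. Of 20 cell cycle genes 19 had an end peak, the most peaks in any was 2 and the median summed width was 1996.5 bases, and all 20 rose, against 28.2% of all tested genes, with a median log2 difference of 3.54. Mki67, the proliferation antigen Ki-67, had 2 peaks and 91.4 and 171.1 FPKM in activated against 8.59 and 9.79 FPKM in resting cells (adjusted p = 0.000191). All 13 matched genes of cholesterol synthesis had an end peak and all 13 rose, with a median of 1 peak and a median log2 difference of 2.69. Of 20 genes of secretion and the unfolded protein response all rose, 15 had an end peak and the 4 named above had none. Herpud1, of the degradation machinery of the endoplasmic reticulum, had 4 peaks and 163.1 and 199.96 FPKM in activated against 58.3 and 59.1 FPKM in resting cells. Among these lists, summed width did not go with 1 direction. Identity genes, with a median of 11154 bases, mostly fell. Plasma cell genes, with 8363 bases, mostly rose, and cholesterol genes, with 2770 bases, rose. The lists were chosen with earlier results of these data known, and no list was tested. Over all tested loci with a peak, calls leaned lower at the largest summed widths, and also at the smallest. Of 1165 loci with 6076 to 75056 bases, 24.5% were higher and 35.8% lower. Of 1082 loci with 2950 to 3884 bases, 31.1% were higher and 22.8% lower. Of 526 loci with 500 to 675 bases, 25.1% were higher and 30.4% lower. The cause was not tested.

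**Figure D5:**
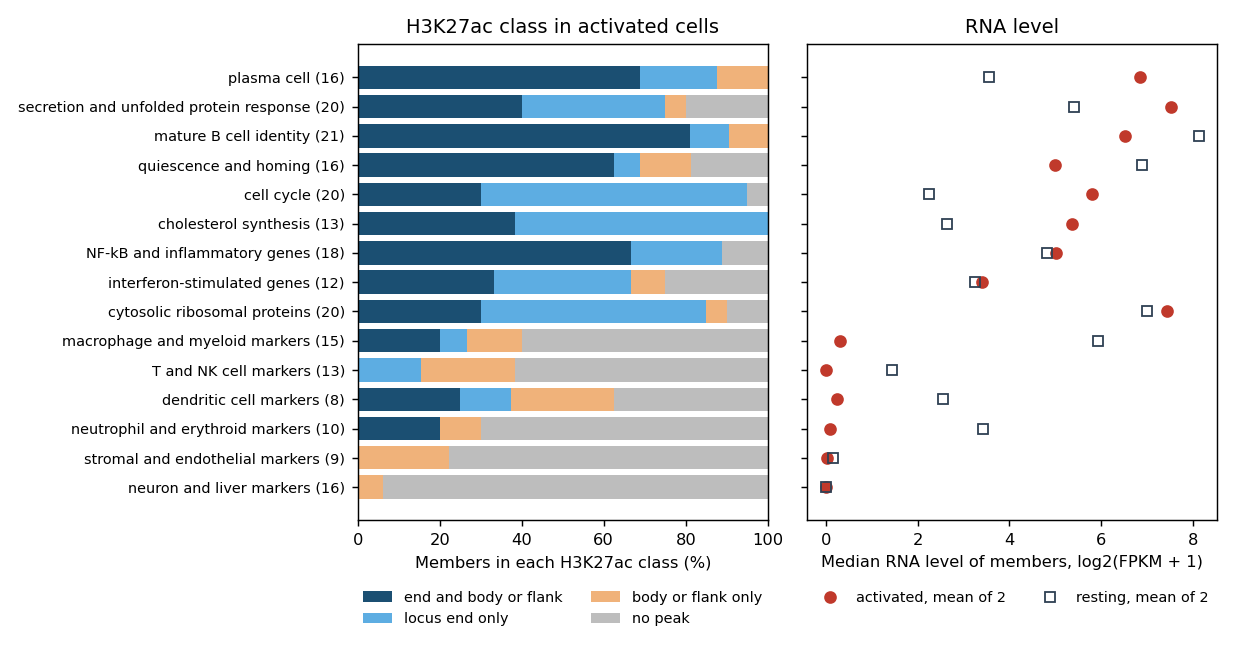
H3K27ac class of the members of 15 gene lists (left, percent of matched members, whose number stands beside each name) and the median RNA level of the members (right, log2(FPKM + 1)), filled circles for activated and open squares for resting cells. Plasma cell and identity lists have mostly both kinds of peak while their medians lie on opposite sides, 113.9 against 10.8 FPKM and 90.7 against 278.4 FPKM in activated against resting cells, and most members of the lists of other cell types have no peak, except dendritic cell markers, with 3 of 8.

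Of 16 genes of quiescence and homing 11 had an end peak and 3 had no peak, and 14 of 15 tested fell, against 26.2% of all tested genes. Without resting replicate 1, 6 fell, and without replicate 2, 7. Of 18 NF-kB and inflammatory genes 16 had an end peak, with 6 higher and 4 lower of 16 tested, near the 28.2% and 26.2% of all tested genes. Nfkb1, which encodes the NF-kB subunit p50, had 14 peaks and did not pass, with 52.4 and 54.6 FPKM in activated and 47.3 and 45.6 FPKM in resting cells. Traf1, a signalling adaptor gene that NF-kB induces, had 4 peaks over 15432 bases and 54.0 and 41.5 FPKM in activated against 19.3 and 16.6 FPKM in resting cells (adjusted p = 0.00152). Il10 and Il6, cytokine genes, had 3 and 1 end peaks. Il10 had 10.9 and 15.98 FPKM in activated and 0.1004 and 0.307 FPKM in resting cells.

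Of 12 interferon-stimulated genes 8 had an end peak, with 3 higher and 1 lower of 11 tested, against 28.2% and 26.2% of all tested genes. These calls depended on single libraries: without activated replicate 1, 6 were lower, and without activated replicate 2, 6 were higher. Of 20 cytosolic ribosomal protein genes 17 had an end peak and 2 had none. Of the 20, 5 rose and none fell, a share of rises near the 28.2% of all tested genes. That count was 1 without resting replicate 1 and 8 without activated replicate 2. Ribosomal protein genes have many pseudogene copies, so their levels are uncertain.

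Markers of other cell types are given beside the 47.0% of all loci that had no peak. Of 15 matched macrophage and myeloid markers 9 had no peak, 2 had a body or flank peak only and 4 had an end peak, and their FPKM summed to 44.1 and 41.8 in activated and 776.9 and 1190 in resting cells. Of these 15, 13 fell, against 26.2% of all tested genes. That count is not support for a difference. Markers near 0 in activated cells, such as C1qa, passed the filter only through the resting samples, and the filter thus favoured a fall. They were no longer tested with 1 resting sample left out. The 3 C1q chain genes C1qa, C1qb and C1qc, whose products start the classical complement pathway, had no peak, as did Vcam1, which had 0.0489 and 0.0153 FPKM in activated and 63.0 and 56.2 FPKM in resting cells. Csf1r, the receptor of macrophage growth factor, had only a 500-base body peak, with 0.0852 and 0.0400 FPKM in activated and 36.1 and 42.0 FPKM in resting cells. Fcna, a ficolin gene of macrophages, had 1 flank peak of 635 bases (chr2:25477001-25477635, mm9), with listed values of 0 in the 2 activated samples, against 38.4 and 40.4 FPKM in the resting samples. Macrophage markers with an end peak still had RNA in activated cells, except Tyrobp: Cd68 had 3.21 and 4.49 FPKM, Mpeg1 28.6 and 16.8 FPKM and Hmox1 8.15 and 10.5 FPKM in activated cells, against 24.5 and 23.7, 70.9 and 77.4, and 88.7 and 96.5 FPKM in resting cells.

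Of 13 T and NK cell markers 8 had no peak and 2 an end peak, with all 5 tested lower, and 1 lower without resting replicate 1 or without replicate 2. Cd3d had a 707-base end peak, with listed values of 0 in the 2 activated samples, against 0.0491 and 1.05 FPKM in resting cells. Of 8 dendritic cell markers 3 had no peak, 3 an end peak and 2 a body or flank peak only. Of 7 tested, 2 were higher and 5 lower, with a median log2 difference of -1.54, and 1 was lower without resting replicate 1 or without replicate 2. The 2 that rose were Flt3 and Bst2, which had both kinds of peak. Flt3, a receptor kinase gene of progenitors, had 6 peaks, with 25.9 and 15.9 FPKM in activated and 5.25 and 4.36 FPKM in resting cells (adjusted p = 0.00100). Of 10 neutrophil and erythroid markers 7 had no peak. Their summed FPKM was 14.6 and 5.57 in activated and 1373 and 9119 in resting cells, so the resting samples differed widely from each other. All 5 tested were lower, 0 without activated replicate 1 or 2 and 2 without resting replicate 1 or 2. Hbb-b1, a beta globin gene, had 3 peaks, and its fall (adjusted p = 0.0148) was lost without activated replicate 1 (0.101) or 2 (0.127). None of 9 stromal and endothelial and none of 16 neuron and liver markers had an end peak. The part of these cells' RNA in the calls of the class with no peak was not tested.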

How the data were processed

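RNA-seq gave the deposited values per locus in 2 activated and 2 resting samples; the authors' unit is not stated in the sources used here and was taken as FPKM from the values, so absolute depth is unknown. The peak lists were deposited as coordinates on mm9 with no score, 1 list per mark. Bowtie, Bowtie2, HOMER, STAR, TopHat2 and bedtools are named per the submitters' processing notes; their roles, versions and strand settings are not given in the sources used here, so antisense and overlapping genes cannot be told apart. 1 further column of per-sample values, without a name, was not used.

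Loci were extended by 5 kb on each side, 1 base of overlap placed a peak in the window, and an end was within 1 kb. Activated and resting samples were compared with limma 3.58.1 (R 4.3.3) on log2(FPKM + 1), with trend and robust settings, over rows with at least 1 FPKM in at least 2 samples, and called at a Benjamini-Hochberg adjusted p under 0.05. Fold changes on this scale understate those of low genes. The procedure was tested on simulated data. Members and gene lists were chosen with earlier results of these data known. Genes were named by rule: the highest levels, largest rises and falls in each class, the most peaks, the most peaks with almost no RNA, and examples of each list; the B cell markers and Alas2 were added as checks of cell type, and Sdc1 and Il10 after their values were seen. Rows with a symbol like a date (27) and symbols on several rows (265 symbols on 767 rows) were counted but not named. Alternatives changed the window, the end distance, the overlap, the peak width, the loci kept, the scaling, the filter, the pseudocount and the samples. Some named genes are not reported here.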

Additional observations from a re-analysis of the deposited data

How the results depend on the processing

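The order of the classes by median activated level was the same under every alternative run. With no flank, the class with both kinds of peak held 2862 loci and that with body or flank peaks only 1079. With peaks of at least the median width it was 2171 for both kinds. With loci whose windows touch no other locus the classes held 1588, 2158, 739 and 6976. Median activated levels with both kinds of peak were 11.7, 11.6 and 11.01 FPKM with flanks of 0, 2 and 10 kb, 11.7 and 10.97 with end distances of 0.5 and 2 kb, 15.005 with wide peaks, 12.3 with isolated loci and 12.3 with the 5′ end alone. With end peaks only they were 8.31 with an end of 2 kb and 11.5 with wide peaks. With body or flank peaks only they were 0.136, 0.123 and 0.0553 with those flanks, 0.0716 with an end of 2 kb, 0.681 with wide peaks, 0.0526 with isolated loci, 0.103 with loci of at least 500 bases and 0.111 with the 5′ end alone. Leaving out a replicate gave 11.1 to 11.4, 8.46 to 8.91 and 0.0726 to 0.0901 FPKM.

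Spearman's correlation with the number of peaks over all loci was 0.743, 0.740 and 0.712 with those flanks, 0.692 with wide peaks, 0.725 with 1 row per symbol, 0.781 with isolated loci, 0.734 with loci of at least 500 bases, 0.728 with the 5′ end alone and 0.726 to 0.727 without a replicate. Spearman's correlation with summed width was 0.775, 0.773, 0.741, 0.761 with an overlap of 100 bases, 0.691, 0.758, 0.807, 0.771, 0.769 and 0.759 to 0.759. Over loci with a peak, the correlation with number was 0.120, 0.139, 0.239, 0.153 with wide peaks, 0.206 with isolated loci and 0.180 to 0.195, and with width 0.238, 0.485, 0.396 with loci of at least 500 bases and 0.372 to 0.388.

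Leaving out a replicate gave 2964 to 5693 called genes against 5910, 1735 to 2859 higher and 1191 to 2834 lower. By class, higher calls were 707 to 1158, 846 to 1476, 78 to 86 and 103 to 139, and lower calls 596 to 1136, 424 to 995, 89 to 264 and 74 to 439. With no flank 729 were higher with both kinds of peak and 82 with body or flank peaks only. With wide peaks 557 were higher and 568 lower with both kinds, and 674 and 910 with no peak. With isolated loci the classes had 414, 574, 46 and 67 higher and 446, 403, 106 and 250 lower. With no filter on low values 298 were higher and 787 lower with no peak. Tmsb4x and Cd74 turned to 0.15 and 0.021 (log2) under quantile normalisation, and the interferon-stimulated genes Mx1 and Usp18 ranged over -1.47 to 0.98 and -0.74 to 1.53 without a replicate, reversed without activated replicate 2 (Mx1) and 1 (Usp18); the cause was not tested. The median log2 difference was 0.03, -0.02 with quantile normalisation and -0.06 with sum scaling.

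The replicate numbers are not stated to pair samples. With a replicate block 6281 genes were called, and deviations of same-numbered samples had r = 0.124, 1 independent value. Calls by peak number, gene lists without each replicate and rows on random chromosomes were alternatives chosen after seeing the data. Classes rest on 1 peak list without scores, and RNA on 2 samples a group, which limits what can be shown.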
